A study of Mus musculus with 9 samples.

Results

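TGF-beta and BMP pathway genes were followed in RNA from the ear epidermis of mice. The members were 36 genes, taken from the count table by their gene symbol, out of 52550 genes that it lists. They comprised 11 ligands, 8 receptors, 5 extracellular antagonists, 4 latent TGF-beta binding proteins, 4 Smads and 4 target genes. All mice were wild type C57BL/6 mice (male C57BL/6J in the methods of the study) of 8 weeks, and each of 3 groups gave 3 libraries of total RNA from epidermal sheets. The control group (VAS + H2O) received Vaseline on the skin for 5 days and distilled water by gavage for 10 days. The model group (IMQ + H2O) received imiquimod cream, an agonist of Toll-like receptor 7 that brings on a psoriasis-like dermatitis, together with water over the same days. The XYF group (IMQ + XYF) received imiquimod and Xiao-Yin-Fang decoction, a herbal formula, over the same days. The decoction was given in a volume of 200 μl at 23.3 mg/g, the high dose of the study. In the methods, the 5 topical days were the last of the 10 gavage days, so gavage began before imiquimod. The methods and figure legends of the study differ on how many times a day gavage was given. The RNA came from ear sheets of 2 mice, which may be per library or per group, so the p-values below measure the spread between libraries.

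TGF-beta ligands are secreted in a latent form that is tethered to the matrix by latent TGF-beta binding proteins, and once released they bind a type II and a type I receptor that activate Smad2 and Smad3. Bone morphogenetic proteins (BMPs) act through related receptors and Smad1, Smad5 and Smad9, raise the Id genes, and are held back by secreted antagonists such as noggin. In skin, TGF-beta is known to restrain keratinocyte division, while BMPs take part in epidermal differentiation and in keeping hair follicles at rest.

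Total counts were 30298275 to 64771160 per library, and all 36 genes passed the low-count filter in each comparison. Inhba did so against VAS + H2O through its imiquimod libraries, as its counts in VAS + H2O were 6, 18 and 0. Levels are given as CPM, counts scaled to the library size with TMM normalization, in the order of replicates 1, 2 and 3, with the mean ± SD of the 3 libraries where a mean is given. A count of 3 corresponded to 0.0463 to 0.0990 CPM, which covers counting error only. Keratinocyte markers summed to 48658 to 71182 CPM, so the sheets were epidermal, but markers of deeper tissue were also present. A matrix score, the mean log2 CPM of 22 cartilage and dermal fibroblast genes, was 3.74, 5.68 and 4.07 in VAS + H2O, 2.52, 2.31 and 2.18 in IMQ + H2O, and 4.34, 3.92 and 3.55 in IMQ + XYF. Against VAS + H2O, all 11 cartilage genes tested passed as lower in IMQ + H2O (median log2 fold change -2.54). Of 11 dermal fibroblast genes 10 had a negative log2 fold change (median -2.44), 4 of them past the threshold, and the remaining gene, Fbln1, passed as higher. Summed cartilage markers ranged from 357 to 781 CPM in VAS + H2O, 68.2 to 131 CPM in IMQ + H2O and 222 to 354 CPM in IMQ + XYF, while Matn1, a cartilage matrix gene, had no count in any library. Dermal fibroblast markers summed to 231 to 1093, 106 to 125 and 203 to 407 CPM in the same order. Of the VAS + H2O libraries, replicate 2 stood apart, with the highest score and 299 CPM of summed skeletal muscle markers against 7.32 and 8.83 CPM in the others. It was the highest VAS + H2O library for 19 of the 36 genes, against 30.1% of all genes expressed. Among the IMQ + XYF libraries, replicate 2 had 81.9 CPM of the muscle markers, against 20.2 and 6.33 CPM in the others. Immune markers differed too. Neutrophil markers summed to 14.6 to 18.3 CPM in VAS + H2O and 588 to 918 CPM in IMQ + XYF. In IMQ + H2O they summed to 280, 358 and 2170 CPM, so that replicate 3 stood apart here. In IMQ + H2O against VAS + H2O, the 3 of 7 neutrophil genes that were tested, S100a8, S100a9 and Cxcr2, passed as higher. The list members Ly6g, Retnlg, Csf3r and Mpo were too low to be tested there, and neutrophil content as such was not measured. Of 7 monocyte and macrophage genes, 3 (Cd68, C1qb and Ly6c2) passed as higher. Their list summed to 38.9 to 50.1 CPM in VAS + H2O and 41.5 to 63.9 CPM in IMQ + H2O, which overlap. Of 5 dendritic epidermal T cell genes 3 passed as lower, and of 5 Langerhans cell genes 0 passed. Among all genes 12.7% passed as higher and 9.41% as lower. The matrix score covers none of these cells. In such bulk libraries fewer cells of a type and less RNA per cell cannot be told apart.

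Among levels per length of exon in VAS + H2O, Tgfbi, which encodes a TGF-beta-induced matrix protein, stood highest at 162 CPM per kb. It was followed by the BMP target genes Id1 at 91.9 and Id3 at 38.5 CPM per kb, then by the latent binding protein gene Ltbp4 at 32.1 and the BMP type I receptor gene Bmpr1a at 24.0 CPM per kb. Of the ligands, Bmp7 at 14.1, Bmp2 at 10.3 and Tgfb3 at 7.87 CPM per kb stood highest. Bmpr1b at 0.179, the BMP antagonist Chrd at 0.0872 and the activin subunit Inhba at 0.0351 CPM per kb were the lowest, and the counts behind Inhba were 6, 18 and 0 in replicates 1, 2 and 3 of VAS + H2O.

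**Figure D1:**
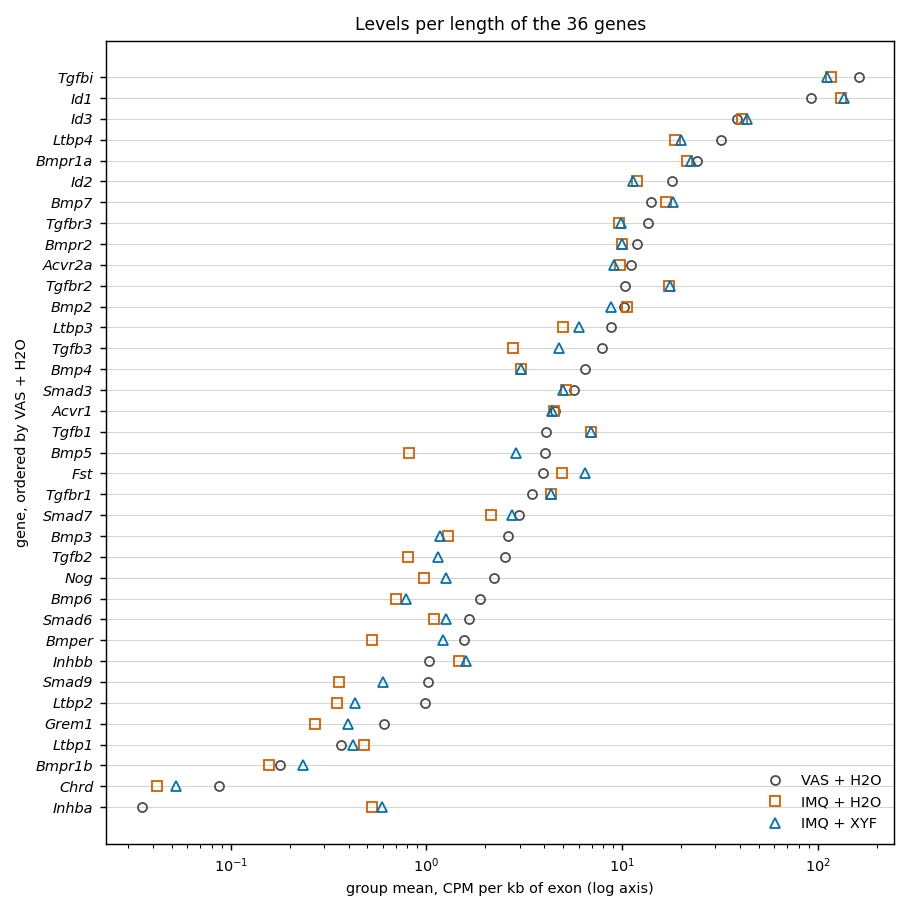
Group means of the 36 genes in CPM per kb of exon (log axis), ordered by VAS + H2O, with circles for VAS + H2O, squares for IMQ + H2O and triangles for IMQ + XYF. Tgfbi and Id1 were the highest in every group, while Inhba moved from 0.0351 CPM per kb in VAS + H2O to 0.525 in IMQ + H2O and 0.591 in IMQ + XYF.

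The comparison of IMQ + H2O with VAS + H2O addressed the effect of imiquimod. By the quasi-likelihood test of edgeR at an adjusted p of at most 0.05, 18 of the 36 genes changed, 4 higher and 14 lower, whereas 22.1% of all 18009 genes tested passed (12.7% higher and 9.41% lower). The genes that rose were Tgfb1, Tgfbr2, Inhba and Id1. Those that fell held ligands (Tgfb2, Tgfb3, Bmp4, Bmp5 and Bmp6), the BMP antagonists Nog, Grem1 and Bmper, the latent binding proteins Ltbp2, Ltbp3 and Ltbp4, and Tgfbr3, Smad9 and Tgfbi. When the change also had to reach 1 on the log2 scale in either direction, 11 were differentially expressed genes (DEGs), 1 higher and 10 lower, against 7.68% of all genes (3.64% higher and 4.04% lower). The 1 higher gene, Inhba, entered the test through its imiquimod libraries. The median log2 fold change was -0.48 over the 36 genes and -0.03 over all genes, and the groups did not overlap for 19 of the 36 genes and for 45% of all genes. DESeq2 called 21 members, against 26.1% of the 18629 genes it tested, adding Bmp3, Id2 and Smad7. The count of 18 was 9 (3 higher and 6 lower) without VAS + H2O replicate 2, 8 without VAS + H2O replicate 1, 11 without IMQ + H2O replicate 1 and 7 without IMQ + H2O replicate 3. Over all genes, 1446 of 18608, 1782 of 18319, 2148 of 18799 and 2131 of 18439 passed in the same fits, in that order. Of the 6 fits that left out 1 library, Tgfb1, Tgfb2 and Ltbp2 passed in 6, Tgfbr2, Grem1 and Ltbp3 in 5, Tgfbr3 and Bmp5 in 4, Bmp4 in 3, Tgfb3, Bmp6, Inhba, Id1, Smad9 and Ltbp4 in 2, and Nog, Bmper and Tgfbi in 1. With the matrix score as a covariate no member passed, and neither did any of the 18009 genes. In that fit 6 members had an unadjusted p under 0.05 (9.61% of all genes did), and the median SE of the members went from 0.20 to 0.37, the scores of these groups being without overlap. All 18 genes kept their sign in it, and 14 of the 18 had a smaller change.

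**Figure D2:**
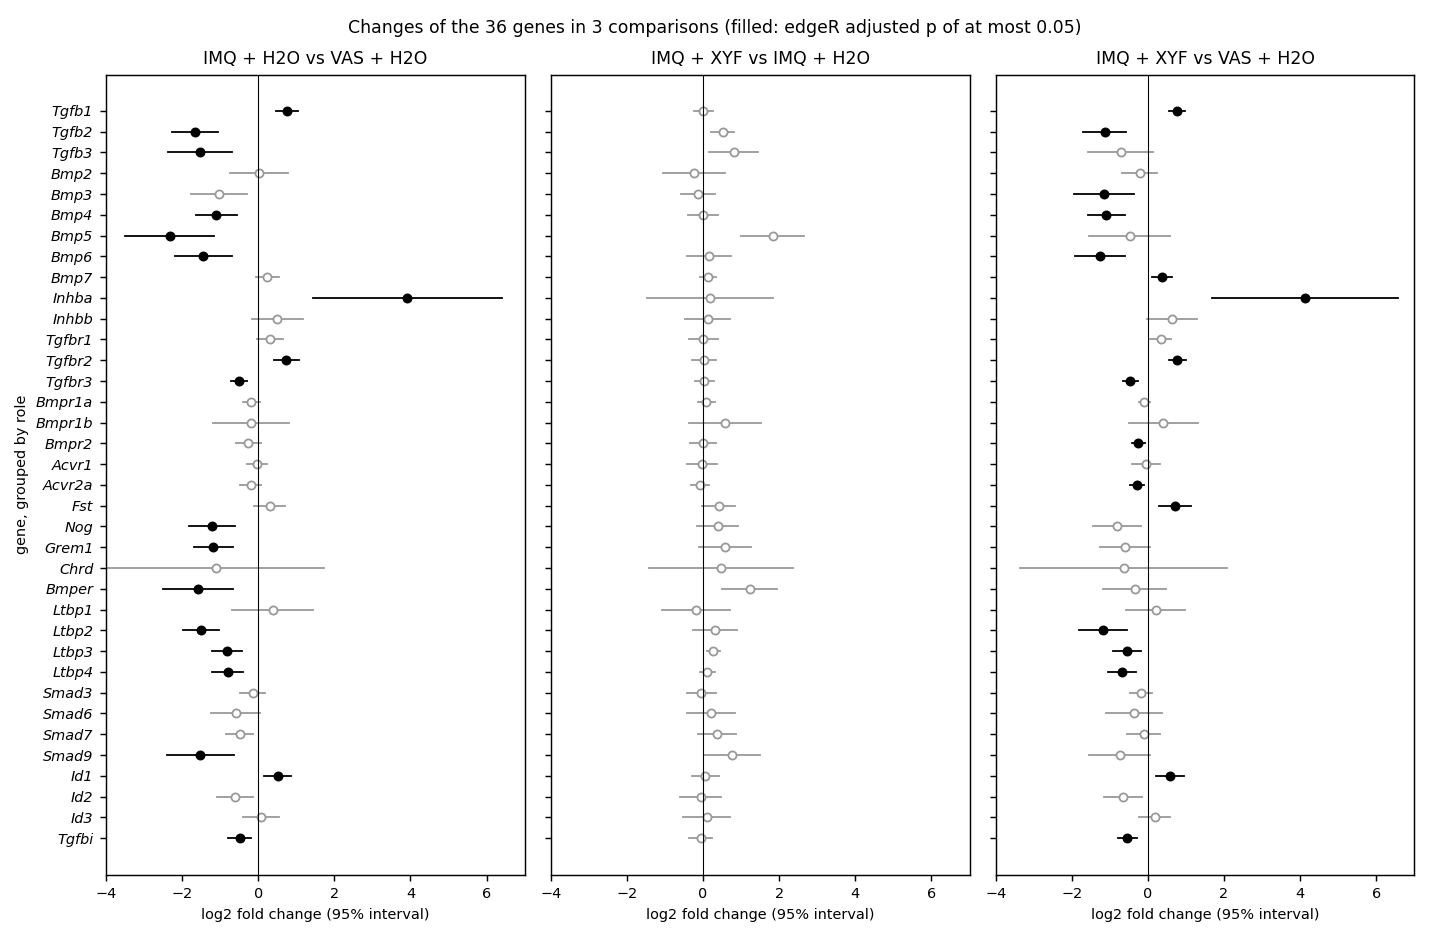
Log2 fold changes of the 36 genes in the 3 comparisons, with 95% intervals, where filled points have an edgeR adjusted p of at most 0.05. Filled points number 18 for IMQ + H2O against VAS + H2O, 0 for IMQ + XYF against IMQ + H2O and 17 for IMQ + XYF against VAS + H2O.

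The TGF-beta ligand genes moved apart under imiquimod. Tgfb1 (chr7:25687002-25705077, GRCm38), the isoform most tied to immune regulation, had 22.5, 20.0 and 19.2 CPM in VAS + H2O, 30.4, 36.9 and 37.3 CPM in IMQ + H2O and 34.3, 36.3 and 34.2 CPM in IMQ + XYF. Every imiquimod-treated library lay above every Vaseline library, with a log2 fold change of 0.75 ± 0.12 (SE) for IMQ + H2O against VAS + H2O (adjusted p = 0.0113) and 0.76 ± 0.09 for IMQ + XYF against VAS + H2O (adjusted p = 0.00206). Tgfb2 (chr1:186622792-186705989), an isoform that depends on the co-receptor betaglycan, had 12.6, 20.2 and 11 CPM in VAS + H2O, 4.87, 4.71 and 4.42 CPM in IMQ + H2O and 6.76, 6.32 and 6.87 CPM in IMQ + XYF. The 3 groups of Tgfb2 values did not overlap, with IMQ + H2O lowest, and the log2 fold change was -1.66 ± 0.25 in IMQ + H2O (adjusted p = 0.01) and -1.13 ± 0.24 in IMQ + XYF (adjusted p = 0.0141), both against VAS + H2O. Without VAS + H2O replicate 2 these were -1.34 and -0.82, and both still passed. Tgfb3 had 22.9, 40.3 and 16.6 CPM in VAS + H2O, 12.3, 8.27 and 7.48 CPM in IMQ + H2O and 21.9, 13.2 and 13.3 CPM in IMQ + XYF. Its highest value was that of VAS + H2O replicate 2, and IMQ + H2O lay below both other groups. It fell by 1.53 on the log2 scale in IMQ + H2O (SE 0.36, adjusted p = 0.0273, and 0.0586 without VAS + H2O replicate 2), whereas IMQ + XYF overlapped VAS + H2O (-0.72 ± 0.36, adjusted p = 0.177). Of its exons 12.4% are also covered by the opposite-strand genes Gm37804 and Gm48008, and Gm37804 had at most 0.228 CPM in any library.

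Of the BMP ligand genes, Bmp4, Bmp5 and Bmp6 fell in IMQ + H2O, while Bmp2, Bmp3 and Bmp7 did not pass. Bmp4, a ligand used throughout skin and hair follicle development, had 11, 14.4 and 18.4 CPM in VAS + H2O, 8.05, 6.97 and 5.60 CPM in IMQ + H2O and 6.71, 7.49 and 6.24 CPM in IMQ + XYF. Both imiquimod groups lay below VAS + H2O and overlapped each other, with log2 fold changes against VAS + H2O of -1.10 ± 0.23 (adjusted p = 0.02) and -1.10 ± 0.20 (adjusted p = 0.00915). Bmp6 had 8.80, 8.56 and 4.73 CPM in VAS + H2O, 2.0, 3.38 and 2.82 CPM in IMQ + H2O and 2.84, 2.71 and 3.62 CPM in IMQ + XYF. It showed the same order, at -1.44 ± 0.31 (adjusted p = 0.022) and -1.27 ± 0.27 (adjusted p = 0.0157), and 5.74% of its exons overlap Txndc5 on the opposite strand, which had 57.7 to 110.0 CPM. Without VAS + H2O replicate 2 the IMQ + H2O changes of Bmp4 and Bmp6 were -1.10 and -1.31 and no longer passed (adjusted p = 0.0603 and 0.0695).

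Bmp5, a ligand known from cartilage and skeletal growth, showed the largest decrease of the 36 genes in IMQ + H2O. It had 11, 27.9 and 9.64 CPM in VAS + H2O, 4.77, 2.70 and 2.38 CPM in IMQ + H2O and 14.7, 12.3 and 7.58 CPM in IMQ + XYF. IMQ + H2O lay below both other groups, which overlapped, and the log2 fold change against VAS + H2O was -2.32 ± 0.49 in IMQ + H2O (adjusted p = 0.0207) and -0.48 ± 0.45 in IMQ + XYF (adjusted p = 0.456). Without VAS + H2O replicate 2 the IMQ + H2O value was -1.66 (adjusted p = 0.0413). Bmp5 (chr9:75775364-75900310) shares 46.7% of its exons with Gm26903, a gene on the opposite strand that had 0 to 2.33 CPM, so the counts there are uncertain. The labels call the libraries strand-specific, the kit named in the methods does not mark strand, and the setting of the counting is not given in the sources used here.

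Bmp3, a ligand that can oppose other BMPs, averaged 19.4 ± 7.70 CPM in VAS + H2O, 9.57 ± 1.28 CPM in IMQ + H2O and 8.65 ± 1.77 CPM in IMQ + XYF. It missed the threshold of edgeR in IMQ + H2O (-1.03 ± 0.31, adjusted p = 0.0565, DESeq2 adjusted p = 0.00577) and was lower in IMQ + XYF (-1.16 ± 0.33, adjusted p = 0.0393). Bmp7, the most abundant ligand per length, averaged 56.5 ± 8.01, 67.5 ± 6.37 and 73.1 ± 3.41 CPM in VAS + H2O, IMQ + H2O and IMQ + XYF. It was higher than in VAS + H2O in IMQ + XYF (0.37 ± 0.11, adjusted p = 0.0433) and did not pass in IMQ + H2O, where the interval was -0.05 to 0.54. These IMQ + XYF calls of Bmp3 and Bmp7 each held in 1 of 6 fits without 1 library. Bmp2 ranged from 20.3 to 52.2 CPM within IMQ + H2O alone, and its interval against VAS + H2O was -0.73 to 0.78.

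Activin is a dimer of the subunits that Inhba and Inhbb encode. Inhba (chr13:16011851-16031621) had 0.127, 0.546 and 0 CPM in VAS + H2O, 1.21, 2.81 and 6.04 CPM in IMQ + H2O and 6.47, 1.33 and 3.53 CPM in IMQ + XYF. Each imiquimod-treated library exceeded each Vaseline library, but Inhba varied several-fold within both imiquimod groups and rested on 18 counts or fewer in each VAS + H2O library. Against VAS + H2O it passed the low-count filter only through the groups where it was high. The log2 fold changes, the largest of the 36 genes, were 3.92 ± 1.04 in IMQ + H2O (adjusted p = 0.0394) and 4.12 ± 1.03 in IMQ + XYF (adjusted p = 0.0254) against VAS + H2O. Leaving out 1 library moved them between 3.18 and 5.51 and between 3.48 and 5.69, with the highest values (5.51 and 5.69) without VAS + H2O replicate 2. They were lowest, and no longer passed, without IMQ + H2O replicate 3 and without IMQ + XYF replicate 1, and the calls held in 2 and 3 of the 6 fits. Inhbb averaged 4.38 ± 1.31, 6.24 ± 1.63 and 6.78 ± 1.55 CPM in the 3 groups and passed in neither comparison with VAS + H2O.

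**Figure D3:**
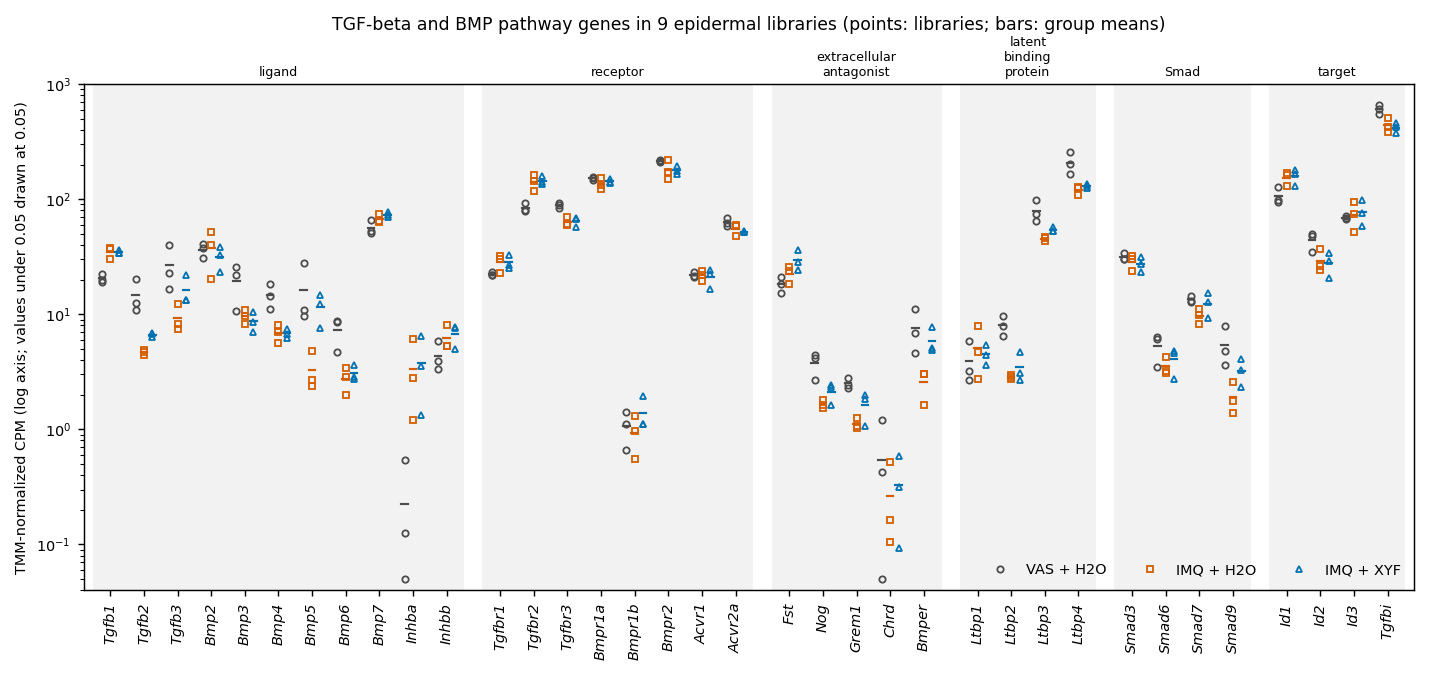
TMM-normalized CPM of the 36 genes in the 9 libraries (log axis), grouped by role, with points for libraries and bars for group means. Values under 0.05 CPM are drawn at 0.05, which applies to Inhba and Chrd in VAS + H2O replicate 3, and the points of VAS + H2O lie above those of IMQ + H2O for Tgfb2, Bmp4, Bmp5, Bmp6 and Ltbp2.

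Receptor genes changed in 1 higher and 1 lower case of 8 in IMQ + H2O (12.7% and 9.41% of all genes). Tgfbr2, which encodes the TGF-beta type II receptor and lies at chr9:116084293-116175360, had 81.3, 92.5 and 79.0 CPM in VAS + H2O, 118, 144 and 163 CPM in IMQ + H2O and 139.8, 134 and 157 CPM in IMQ + XYF. Its imiquimod libraries all stood above its Vaseline libraries (0.74 ± 0.14, adjusted p = 0.0152, and 0.77 ± 0.09, adjusted p = 0.00222, for IMQ + H2O and IMQ + XYF). Tgfbr3, which encodes betaglycan, had 84.2, 93.1 and 88.9 CPM in VAS + H2O, 60.6, 69.4 and 59.5 CPM in IMQ + H2O and 68.0, 67.9 and 57.5 CPM in IMQ + XYF. The type III receptor was thus lower in both imiquimod groups, at -0.50 ± 0.09 (adjusted p = 0.0144) and -0.46 ± 0.09 (adjusted p = 0.00977), and 4.54% of its exons overlap Gm43422 on the same strand. The TGF-beta type I receptor gene Tgfbr1 averaged 22.5 ± 0.797, 28.3 ± 4.92 and 28.3 ± 4.08 CPM across the 3 groups and did not pass (adjusted p = 0.157 and 0.0762 against VAS + H2O).

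Of the receptors of BMPs and activins, Bmpr1a, Bmpr1b, Bmpr2, Acvr1 and Acvr2a, none passed in IMQ + H2O by edgeR or DESeq2. The intervals of their log2 fold changes against VAS + H2O were -0.40 to 0.04 for Bmpr1a, -0.58 to 0.06 for Bmpr2, -0.29 to 0.24 for Acvr1, -0.47 to 0.07 for Acvr2a and, at about 1 CPM, -1.20 to 0.82 for Bmpr1b. In IMQ + XYF the type II receptor genes Bmpr2 (-0.25 ± 0.07, adjusted p = 0.0441) and Acvr2a (-0.28 ± 0.08, adjusted p = 0.0361) were slightly lower than in VAS + H2O. Each of these calls held in 1 of the 6 fits that left out 1 library, and 7.84% of the exons of Acvr2a overlap Orc4 on the opposite strand.

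Of the 5 extracellular antagonist genes, 3 fell in IMQ + H2O, where 9.41% of all genes passed as lower. Nog, which encodes noggin, had 4.17, 4.46 and 2.70 CPM in VAS + H2O, 1.8, 1.61 and 1.53 CPM in IMQ + H2O and 2.42, 1.63 and 2.34 CPM in IMQ + XYF (-1.21 ± 0.25, adjusted p = 0.0197 in IMQ + H2O against VAS + H2O). Grem1, which encodes gremlin, had 2.81, 2.31 and 2.41 CPM, 1.07, 1.25 and 1.02 CPM and 2.0, 1.08 and 1.85 CPM in the same order (-1.19 ± 0.22, adjusted p = 0.0147). Bmper, whose product binds BMPs in the extracellular space, had 6.90, 11.1 and 4.65 CPM, 3.04, 3.02 and 1.62 CPM and 7.73, 5.12 and 4.85 CPM (-1.58 ± 0.39, adjusted p = 0.0326). For all 3 genes IMQ + H2O lay below VAS + H2O without overlap, but without VAS + H2O replicate 2 Nog and Bmper no longer passed (adjusted p = 0.0628 and 0.0843). By edgeR none of the 3 passed in IMQ + XYF against VAS + H2O, with adjusted p of 0.0594, 0.143 and 0.483. Fst, which encodes the activin-binding protein follistatin, averaged 18.2 ± 2.83 CPM in VAS + H2O, 22.5 ± 3.76 CPM in IMQ + H2O and 29.7 ± 5.97 CPM in IMQ + XYF. It was higher than in VAS + H2O in IMQ + XYF (0.71 ± 0.18, adjusted p = 0.026, and 0.0679 without VAS + H2O replicate 2), a call that held in 2 of 6 fits without 1 library, and not past the threshold in IMQ + H2O (0.30 ± 0.17, adjusted p = 0.254). Chrd, which encodes chordin, had 40 counts or fewer in every library and could not be resolved, with an interval of -3.96 to 1.73 in IMQ + H2O against VAS + H2O.

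Of the latent TGF-beta binding proteins, Ltbp2, Ltbp3 and Ltbp4 were lower in both imiquimod groups. Ltbp2 had 7.98, 9.62 and 6.42 CPM in VAS + H2O, 2.83, 2.73 and 2.96 CPM in IMQ + H2O and 4.75, 2.68 and 3.11 CPM in IMQ + XYF. Neither imiquimod group overlapped VAS + H2O (-1.51 ± 0.20, adjusted p = 0.00797, and -1.18 ± 0.26, adjusted p = 0.0177), and the IMQ + XYF call held in 3 of 6 fits without 1 library, with an adjusted p of 0.0524 without VAS + H2O replicate 2. Its exons share 9.34% with the opposite-strand gene D030025P21Rik, which had at most 0.855 CPM. Ltbp3, which pairs with latent TGF-beta in many tissues, had 74.5, 98.9 and 64.3 CPM in VAS + H2O, 43.7, 46.6 and 46.1 CPM in IMQ + H2O and 57.3, 53.4 and 52.8 CPM in IMQ + XYF (-0.82 ± 0.16 and -0.54 ± 0.15 against VAS + H2O, adjusted p = 0.0181 and 0.0408). Ltbp4, the most abundant of the 4 per length, had 201, 257 and 165 CPM, 129, 126 and 108 CPM and 135, 129.8 and 125 CPM (-0.79 ± 0.17 and -0.67 ± 0.15, adjusted p = 0.0222 and 0.0191). For both, the highest library was VAS + H2O replicate 2, and without it the changes in IMQ + H2O were -0.62 and -0.60 and still passed. Other libraries mattered more to Ltbp4, whose IMQ + H2O call held in 2 of 6 fits without 1 library. In IMQ + XYF the calls of Ltbp3 and Ltbp4 held in 2 and 3 of 6. Ltbp1 averaged 3.91 ± 1.68, 5.12 ± 2.63 and 4.49 ± 0.908 CPM and did not pass in either comparison with VAS + H2O.

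Among the Smads, Smad9, a signal transducer of BMP receptors, had 4.80, 7.92 and 3.61 CPM in VAS + H2O, 1.76, 2.60 and 1.39 CPM in IMQ + H2O and 4.05, 3.30 and 2.34 CPM in IMQ + XYF. It was lower in IMQ + H2O (-1.52 ± 0.37, adjusted p = 0.0311, and 0.0796 without VAS + H2O replicate 2) and overlapped VAS + H2O in IMQ + XYF (-0.75 ± 0.34, adjusted p = 0.147). Smad7, an inhibitory Smad that TGF-beta induces as feedback, had 14.4, 13.1 and 12.8 CPM, 8.19, 11.1 and 9.79 CPM and 15.2, 12.8 and 9.26 CPM in the same order. IMQ + H2O did not overlap VAS + H2O, yet Smad7 missed the threshold of edgeR (-0.48 ± 0.15, adjusted p = 0.06) and passed by DESeq2 (adjusted p = 0.046). The inhibitory Smad6 (-0.60 ± 0.27, adjusted p = 0.161) and Smad3, the transducer of TGF-beta and activin receptors (-0.14 ± 0.14, adjusted p = 0.491), did not pass in IMQ + H2O, nor in IMQ + XYF against VAS + H2O (adjusted p = 0.401 and 0.308).

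The Id genes encode inhibitors of helix-loop-helix transcription factors and are direct BMP targets. Id1 had 95, 98.2 and 127 CPM in VAS + H2O, 129, 168 and 162 CPM in IMQ + H2O and 179, 166 and 131 CPM in IMQ + XYF. Both imiquimod groups stood above VAS + H2O (0.51 ± 0.15, adjusted p = 0.0487, and 0.57 ± 0.15, adjusted p = 0.0332), a call that held in 2 of 6 fits without 1 library in each comparison. Id2 ran the other way without passing by edgeR (-0.60 ± 0.20, adjusted p = 0.0745, and -0.66 ± 0.21, adjusted p = 0.0588), while DESeq2 called it in both comparisons (adjusted p = 0.0278 and 0.0135), and Id3 spread from 51.4 to 94.9 CPM within IMQ + H2O (0.08 ± 0.20, adjusted p = 0.811). Tgfbi had 613, 553 and 664 CPM in VAS + H2O, 384, 512 and 422 CPM in IMQ + H2O and 419.8, 461 and 376 CPM in IMQ + XYF. Although its product is named for induction by TGF-beta, Tgfbi was lower in both imiquimod groups (-0.49 ± 0.13, adjusted p = 0.0377, and -0.54 ± 0.10, adjusted p = 0.0104), a call that held in 1 and 6 of the 6 fits without 1 library.

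The effect of XYF under imiquimod was addressed by setting IMQ + XYF against IMQ + H2O, and here edgeR called none of the 36 genes. In all, 0.0281% of the 17793 genes tested passed (5 genes, all higher in IMQ + XYF), and 6 of the 36 genes had an unadjusted p under 0.05, against 5.43% of all genes. DESeq2 called 2 of the 36, Bmp5 and Bmper, both higher in IMQ + XYF, against 0.968% of the genes it tested (0.757% with the fold threshold, which both passed). The log2 fold change of Bmp5 was 1.83 ± 0.35 (edgeR adjusted p = 0.36, DESeq2 adjusted p = 2.59e-05) and that of Bmper 1.22 ± 0.31 (edgeR adjusted p = 0.524, DESeq2 adjusted p = 0.0294). The others with an unadjusted p under 0.05 were Tgfb3 (0.80 ± 0.27), Smad9 (0.76 ± 0.31), Tgfb2 (0.52 ± 0.13) and Ltbp3 (0.27 ± 0.07), with adjusted p from 0.479 to 0.887. For 5 genes, Tgfb2, Tgfb3, Bmp5, Bmper and Ltbp3, every IMQ + XYF library lay above every IMQ + H2O library, while 10.7% of all genes had no overlap between these groups. The matrix score also had no overlap between them, being 3.94 ± 0.40 in IMQ + XYF and 2.34 ± 0.17 in IMQ + H2O. With that score as a covariate the fitted changes were -0.56 for Bmp5, -0.48 for Bmper, -0.999 for Tgfb3 and -0.77 for Smad9, all of the opposite sign, and 0.45 for Tgfb2 and 0.11 for Ltbp3, and none passed. The median SE of the members was 0.20 without and 0.60 with the covariate, so these values are loosely fixed.

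The genes that had risen under imiquimod were not separable between the imiquimod groups. The interval for IMQ + XYF against IMQ + H2O was -0.24 to 0.25 on the log2 scale for Tgfb1, -0.28 to 0.34 for Tgfbr2, -0.29 to 0.41 for Id1 and -1.47 to 1.83 for Inhba. Among the genes that had fallen, Bmp4 at -0.41 to 0.40, Bmp6 at -0.41 to 0.74, Tgfbr3 at -0.21 to 0.28 and Tgfbi at -0.37 to 0.24 gave intervals that included 0. The widest of these, that of Inhba, leaves room for a change of more than 1 in either direction.

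In IMQ + XYF against VAS + H2O, 17 of the 36 genes passed, 6 higher and 11 lower, against 28.7% of all 17954 genes (16.7% higher and 12% lower). The higher genes were Tgfb1, Tgfbr2, Bmp7, Inhba, Fst and Id1, and the lower genes were Tgfb2, Tgfbr3, Bmp3, Bmp4, Bmp6, Bmpr2, Acvr2a, Ltbp2, Ltbp3, Ltbp4 and Tgfbi. DESeq2 called 19, adding Nog and Id2, against 30.5% of the 18744 genes it tested. DEGs numbered 6, Inhba upward and Tgfb2, Bmp3, Bmp4, Bmp6 and Ltbp2 downward, against 7.64% of all genes (4.58% higher and 3.05% lower). This comparison shares its VAS + H2O libraries with the imiquimod comparison, so the calls of both do not count as separate evidence. The number passing was 11 (3 higher and 8 lower) without VAS + H2O replicate 2, and 6, 8 and 8 without IMQ + XYF replicate 1, 2 and 3. Over all genes, 3849 of 18386 passed without VAS + H2O replicate 2. Without IMQ + XYF replicate 1, 2 and 3, 3459 of 18509, 3684 of 18590 and 3221 of 18512 passed. Tgfb1, Tgfbr2, Tgfbr3, Bmp4 and Tgfbi passed in all 6 fits without 1 library, and Tgfb2 in 4. The matrix scores of these groups overlapped, and with the score as a covariate 11 genes passed, against 23% of all genes. These were Tgfb1, Tgfbr2 and Inhba higher, and Tgfb2, Tgfbr3, Bmp4, Bmp6, Ltbp2, Ltbp3, Ltbp4 and Tgfbi lower. The covariate changed Tgfb1 from 0.76 to 0.74, Tgfbr2 from 0.77 to 0.81, Bmp4 from -1.10 to -1.07 and Tgfb2 from -1.13 to -0.89 on the log2 scale.

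**Figure D4:**
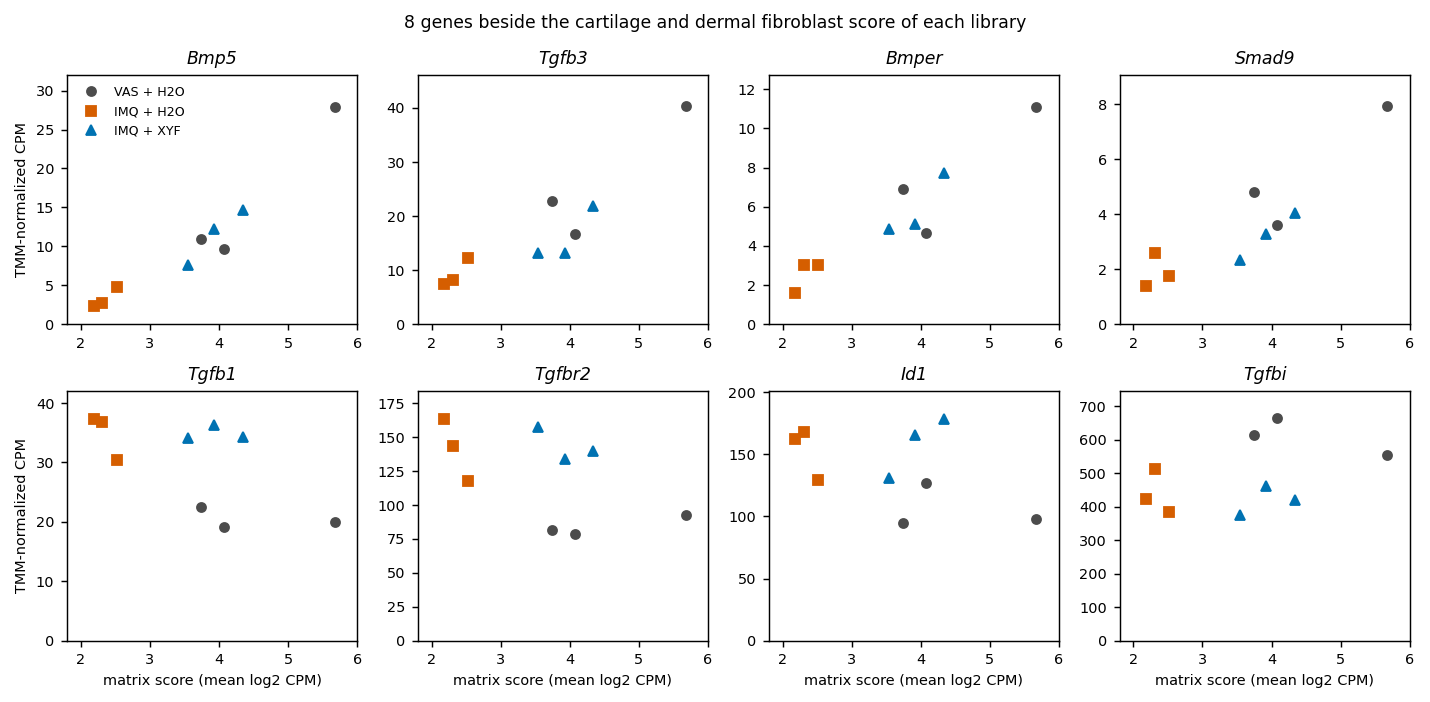
TMM-normalized CPM of 8 genes, chosen after their values were seen, against the matrix score of each library (mean log2 CPM of 22 cartilage and dermal fibroblast genes), with circles for VAS + H2O, squares for IMQ + H2O and triangles for IMQ + XYF. Bmp5, Tgfb3, Bmper and Smad9 were highest in the library with the highest score, VAS + H2O replicate 2 at 5.68. Tgfb1 and Tgfbr2 were higher in each IMQ + XYF library than in each VAS + H2O library, and the scores of these groups overlapped. The scores of IMQ + H2O lay below those of both other groups.

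Bmp5, Tgfb3, Bmper and Smad9 thus had their highest value in the library of highest matrix score and lower values in the 3 IMQ + H2O libraries, which had the lowest scores. Tgfb1 had 34.2 to 36.3 CPM in IMQ + XYF and 19.2 to 22.5 CPM in VAS + H2O, groups whose scores of 3.55 to 4.34 and 3.74 to 5.68 overlapped. The part of cartilage and dermis in the lower ligand and antagonist values was not tested beyond these fits. The part of other cell types in any of the changes was not tested.

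The wider pathway was read from 81 other genes, of which 62 were tested in IMQ + H2O against VAS + H2O. Of these, 2 were higher and 20 lower by edgeR, against 12.7% higher and 9.41% lower of all genes, with a median log2 fold change of -0.31. None of the 13 other Smads and Smad regulators passed by edgeR, and DESeq2 called 1. An unadjusted p under 0.05 was reached by 4 of the 13 and by 6823 of all 18009 genes. Among ligands, Gdf5, a joint and cartilage factor, had 2.75, 7.83 and 1.75 CPM in VAS + H2O, 0.518, 0.832 and 0.255 CPM in IMQ + H2O and 4.34, 2.41 and 1.11 CPM in IMQ + XYF. On the log2 scale it changed by -2.96 ± 0.69 in IMQ + H2O (adjusted p = 0.0273), and Gdf10 (-1.87 ± 0.50) and Mstn, which encodes myostatin (-1.93 ± 0.44), were lower too. The activin receptor gene Acvr2b (-1.33 ± 0.33), the pseudoreceptor gene Bambi (-1.63 ± 0.38) and the follistatin-like gene Fstl1 (-2.55 ± 0.61) also fell.

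Among the genes of latency and activation, Bgn (-2.47 ± 0.42) and Fbn1 (-2.51 ± 0.50), which encode the matrix proteins biglycan and fibrillin, and the protease gene Tll1 (-1.26 ± 0.24) were lower. Itgb6, which encodes the beta chain of an epithelial integrin that frees latent TGF-beta, was the 1 DEG that rose. It had 3.77, 5.10 and 4.90 CPM in VAS + H2O, 12.3, 15.7 and 18.9 CPM in IMQ + H2O and 16.4, 13.1 and 14.5 CPM in IMQ + XYF. Every imiquimod library of Itgb6 exceeded every Vaseline library, at 1.76 ± 0.21 (adjusted p = 0.00688) for IMQ + H2O and 1.68 ± 0.17 (adjusted p = 0.00136) for IMQ + XYF. The target genes Ctgf (-1.95 ± 0.37), Fn1, which encodes fibronectin (-2.31 ± 0.48), and Msx1 (-1.59 ± 0.45) were lower in IMQ + H2O. The 1 target gene that rose was Postn, which encodes the matrix protein periostin and is named after its values were seen, with 126, 141 and 169.8 CPM in VAS + H2O, 229.6, 294 and 204 CPM in IMQ + H2O and 309, 744 and 398 CPM in IMQ + XYF. Its groups of values did not overlap, and its log2 fold change against VAS + H2O was 0.72 ± 0.17 (adjusted p = 0.0257, and 0.0824 without VAS + H2O replicate 2) in IMQ + H2O and 1.73 ± 0.32 (adjusted p = 0.0093) in IMQ + XYF. Without VAS + H2O replicate 2 the changes in IMQ + H2O were -2.08 for Gdf5, -1.18 for Gdf10, -1.48 for Fstl1, -1.83 for Fbn1, -1.89 for Bgn, -1.59 for Fn1, -1.13 for Bambi and -0.93 for Msx1. Without that library Gdf5, Gdf10, Mstn, Acvr2b, Tll1 and Msx1 no longer passed, while Bambi, Fstl1, Fbn1, Bgn, Ctgf, Fn1 and Itgb6 did. In this comparison the calls of Bgn, Ctgf and Itgb6 held in all 6 fits without 1 library, and those of Fbn1 and Tll1 in 4. Those of Fstl1, Fn1 and Postn held in 3, Gdf5, Mstn and Bambi in 2, and Gdf10, Acvr2b and Msx1 in 1. In IMQ + XYF against IMQ + H2O edgeR called none of 61 tested, and 16 had an unadjusted p under 0.05 (5.43% of all genes did). DESeq2 called 7, against 0.968% of all genes it tested, and Gdf5, Fstl1, Bgn, Fn1 and Postn were among them. In IMQ + XYF against VAS + H2O 3 of 63 were higher and 14 lower (16.7% and 12% of all genes). Both directions together, that share was close to the 28.7% of all genes. Of the 14 genes named here, Itgb6, Postn, Tll1 (-1.57 ± 0.14, adjusted p = 0.000951) and Mstn (-1.12 ± 0.34, adjusted p = 0.0493) passed in that last comparison, and the call of Mstn held in 0 of 6 fits without 1 library. The calls among the 62 genes numbered 10 without VAS + H2O replicate 2, 11 without VAS + H2O replicate 1, and 6, 12 and 7 without IMQ + H2O replicate 1, 2 and 3. Over all genes, 1446, 1782, 2148, 3077 and 2131 of 18319 to 18799 tested passed in the same fits, in that order. The 17 calls of IMQ + XYF against VAS + H2O numbered 8 without VAS + H2O replicate 1, and 7, 8 and 8 without IMQ + XYF replicate 1, 2 and 3. All genes that passed in these fits numbered 3785, 3459, 3684 and 3221 of 18401 to 18590 tested.

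The bases upstream of the start of 5 genes are shown, chosen after their values were seen, because they were higher (Tgfb1, Tgfbr2 and Inhba) or lower (Tgfb2 and Bmp4) in both imiquimod groups and kept that call with the matrix score in IMQ + XYF against VAS + H2O, as 6 other members did. Each is the 250 bases before the start in RefSeq (GRCm38.p6), read 5′ to 3′ on the strand of the gene. Capitals mark GTCTG or its reverse complement CAGAC, a short element that Smad3 and Smad4 bind, where present. Tgfb1 lies at chr7:25686752-25687001 (plus strand), Tgfbr2 at chr9:116175364-116175613 (minus strand), Inhba at chr13:16011601-16011850 (plus strand), Tgfb2 at chr1:186705990-186706239 (minus strand) and Bmp4 at chr14:46390670-46390919 (minus strand).
Tgfb1: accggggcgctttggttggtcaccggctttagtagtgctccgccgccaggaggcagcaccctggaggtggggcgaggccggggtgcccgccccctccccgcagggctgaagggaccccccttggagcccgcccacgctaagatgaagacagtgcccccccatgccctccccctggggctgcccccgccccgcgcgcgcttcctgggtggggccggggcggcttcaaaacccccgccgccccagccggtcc
Tgfbr2: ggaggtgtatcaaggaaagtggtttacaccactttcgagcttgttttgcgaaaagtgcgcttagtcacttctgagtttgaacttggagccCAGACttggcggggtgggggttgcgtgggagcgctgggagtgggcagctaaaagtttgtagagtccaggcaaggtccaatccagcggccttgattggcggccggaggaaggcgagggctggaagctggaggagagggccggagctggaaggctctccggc
Inhba: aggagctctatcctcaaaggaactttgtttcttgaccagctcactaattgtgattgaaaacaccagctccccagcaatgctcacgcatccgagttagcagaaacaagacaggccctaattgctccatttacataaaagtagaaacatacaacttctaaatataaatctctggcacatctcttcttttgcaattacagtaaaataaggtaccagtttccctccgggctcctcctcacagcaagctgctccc
Tgfb2: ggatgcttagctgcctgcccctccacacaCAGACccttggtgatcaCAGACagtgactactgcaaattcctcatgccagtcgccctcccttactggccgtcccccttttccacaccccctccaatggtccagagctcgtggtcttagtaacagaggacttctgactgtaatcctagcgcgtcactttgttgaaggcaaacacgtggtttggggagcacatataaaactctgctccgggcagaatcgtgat
Bmp4: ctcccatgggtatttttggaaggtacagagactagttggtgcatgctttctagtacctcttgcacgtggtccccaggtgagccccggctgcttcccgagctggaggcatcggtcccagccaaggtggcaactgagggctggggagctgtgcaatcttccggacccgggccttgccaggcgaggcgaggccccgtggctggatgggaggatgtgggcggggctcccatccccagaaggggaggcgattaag

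The letters GTCTG occurred on either strand in the first listed window of 12 of the 27 members with an entry in the promoter table (44.4%), and in 42.1% of all 27025 promoters. The GC-rich letters GGCGCC, an element of BMP-activated Smads, occurred in 8 of the 27 (29.6%) and in 9.54% of all promoters, where the median GC content was 64.4% in the members and 52% in all. Among the genes shown, Tgfb2 held the GTCTG element at 2 positions and Tgfbr2 at 1, and Tgfb1, Inhba and Bmp4 held neither motif in these windows. The 9 members without an entry were Tgfb3, Tgfbr3, Bmp2, Bmp3, Bmp7, Fst, Nog, Id1 and Smad7.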

How the data were processed

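Epidermal RNA libraries, 9 in all and 3 per group, were analysed, and groups were taken from the deposited labels. Per the study's methods and the submitters' processing notes, the authors sequenced TruSeq libraries, aligned reads with STAR (version 2.5) to GRCm38 with Ensembl annotation, and named StringTie, Cuffnorm, DESeq (version 1.22.1) and DESeq2 for later steps. The authors deposited whole-number counts per gene without normalization. The counting tool and its strand setting are not given in the sources used here. No column of the authors' own comparisons was used.

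Counts were analysed in R 4.3.3 with edgeR 4.0.16: filterByExpr, TMM, glmQLFit and glmQLFTest on the 6 libraries of each comparison, with Benjamini-Hochberg adjustment over all genes tested. A gene passed at an adjusted p of at most 0.05, and was a DEG where the log2 fold change was also 1 or more in size. Standard errors were derived from the test statistic. Levels used TMM factors over 18492 genes, and exon lengths and positions came from GENCODE release M21. On simulated counts for IMQ + H2O against VAS + H2O, with 200 of 18009 genes changed 4-fold, 78% were recovered with 6 false calls, and 0 calls were made without change.

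Alternatives were DESeq2 1.42.0, RLE size factors, other low-count filters (none, or a minimum of 10 counts throughout), a joint fit of the 9 libraries, a block for the replicate number, glmTreat, the matrix score (cartilage and fibroblast genes) as covariate, and omission of single libraries. The members, the lists and the rule for named genes (all members, and other pathway DEGs of IMQ + H2O against VAS + H2O, at most 3 each way per sub-list) were chosen with earlier results of these data known. No libraries were near-duplicates. Dermal libraries were not analysed here.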

Additional observations from a re-analysis of the deposited data

How the results depend on the processing

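With 3 libraries per group, counts of calls depended on single libraries. Leaving out 1 library gave 7 to 16 of the members past the adjusted p in IMQ + H2O against VAS + H2O (3 to 9 DEGs), 6 to 13 in IMQ + XYF against VAS + H2O (2 to 4 DEGs) and 0 in IMQ + XYF against IMQ + H2O. The other pathway genes gave 6 to 20, 7 to 15 and 0. All genes past the threshold in IMQ + H2O against VAS + H2O went from 3986 to between 1446 and 3077. In IMQ + XYF against VAS + H2O they went from 5152 to between 3221 and 4544. The matrix score covariate left 0 members, 0 DEGs and 0 other pathway genes in IMQ + H2O against VAS + H2O. It left 0 of all 18009 genes there too. In IMQ + XYF against VAS + H2O it left 11 members and 4131 of all 17954 genes. Among the other pathway genes, Dcn is also on the dermal fibroblast list. glmTreat against a log2 fold change of 1 left 0 DEGs in both comparisons with VAS + H2O. In IMQ + XYF against IMQ + H2O, DESeq2 called 2 members, both DEGs, and 7 other pathway genes, where edgeR called 0. The cause of these differences was not tested.

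The replicate block could be fitted, although the replicate numbers did not pair the libraries: deviations of the 9 same-numbered pairs correlated at -0.13 to 0.11, with 2 over 0.1, and 2 of 9 libraries correlated best with their own number. With the replicate block, 9 members (3 DEGs) and 11 other pathway genes passed in IMQ + XYF against VAS + H2O. Of all 17954 genes, 3753 passed there (1113 DEGs). In IMQ + H2O against VAS + H2O, 15 members (9 DEGs) and 17 other pathway genes passed, and 3002 of all 18009 genes (1100 DEGs). In the remaining comparison 0 of all 17793 genes passed, members included. RLE size factors, the low-count filters and all 9 libraries in 1 fit kept each count of members within 1.5 times its value. No member called by edgeR changed sign under an alternative, whereas Bmp5 and Bmper, called by DESeq2 in IMQ + XYF against IMQ + H2O, were at -0.56 and -0.48 with the matrix score covariate. Precision for Inhba, Chrd and Bmpr1b was limited by low counts.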
